A study of Rattus norvegicus with 4 samples.

Results

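The myosin light chain genes Myl2, Myl3, Myl4, Myl7, Myl6 and Myl9 were followed in RNA-seq of neonatal rat ventricular cardiomyocytes, the contractile cells of the heart, after transfection of miRNA mimics. The 6 genes were chosen by name, with the earlier observation that Myl7 and Myl4 were higher with some mimics already known, so their differences are given as a description and no test is attached to them. Myl6, the light chain of non-muscle and smooth muscle myosin, had no row under its symbol, so its expression was not analysed here. The other 5 of these 6 genes were read under their symbol among the 15731 genes of the table. The table lists them as Myl2 (ENSRNOG00000030848), Myl3 (ENSRNOG00000020955), Myl4 (ENSRNOG00000050675), Myl7 (ENSRNOG00000014409) and Myl9 (ENSRNOG00000020246). Cells came from the separated ventricles of wild type Wistar rats at postnatal day 1 (the isolation protocol says day 0). They received a synthetic mimic of 1 human miRNA (hsa-miR-25-3p, hsa-miR-93-5p or hsa-miR-106b-5p), or the control mimic cel-miR-67, a miRNA of a worm, and RNA was taken 72 h later. The labels state a mimic concentration of 25 nM in one protocol and 25 mM in another. Each mimic gave 1 library, so no value has a replicate check, and all 3 mimics are compared with the same control library.

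Myosin motors are built from heavy chains, and each head of a heavy chain carries an essential and a regulatory light chain that stiffen its lever arm. Myl2 is the ventricular regulatory chain and Myl7 the atrial one, while Myl3 is the ventricular essential chain and Myl4 the atrial one. Both atrial forms are also made in the ventricle of the embryo and decline there as the heart matures. Myl9 is a regulatory chain of smooth muscle and non-muscle myosin, and phosphorylation of the regulatory chains by myosin light chain kinases raises force or motor activity.

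miR-106b and miR-93 share the bases of their seed, the stretch that pairs with target transcripts, and miR-25 has another seed, which is why the sequences are shown here. The RefSeq mature forms of the rat genes (build GRCr8, minus strand, at chr12:22157103-22157123, chr12:22156894-22156916 and chr12:22156652-22156673) are printed with the seed, bases 2 to 8, in capitals.
rno-miR-106b-5p: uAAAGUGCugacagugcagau
rno-miR-93-5p: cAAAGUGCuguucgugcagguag
rno-miR-25-3p: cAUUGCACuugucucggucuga

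Values are RPKM, reads divided by gene length and by library size, as the authors deposited them. The whole reads behind these values were recovered for all 15731 genes, and the libraries held 15175185 to 18797234 reads on listed genes. Every interval is a 95% interval of the counting error in the libraries compared and leaves out differences between cultures. A gene was called up or down when it was past 1.3-fold (0.38 on the log2 scale) at an RPKM over 1.0 in each library compared. On the log2 scale, the median over all tested genes was -0.0033 for miR-106b, -0.0018 for miR-93 and -0.012 for miR-25.

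The cultures carried the light chain profile of ventricle. In the control library Myl2 was the gene with the third highest RPKM, at 6838, and Myl3 stood at 1351, whereas Myl4 stood at 83.2 and Myl7 at 18.8. Myl9 was at 1075, between Myl3 and Myl4. The order Myl2, Myl3, Myl9, Myl4, Myl7 held in the control and miR-106b libraries. After miR-93 Myl7 and Myl4 had nearly equal RPKM, and after miR-25 Myl9 was above Myl3.

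**Figure D1:**
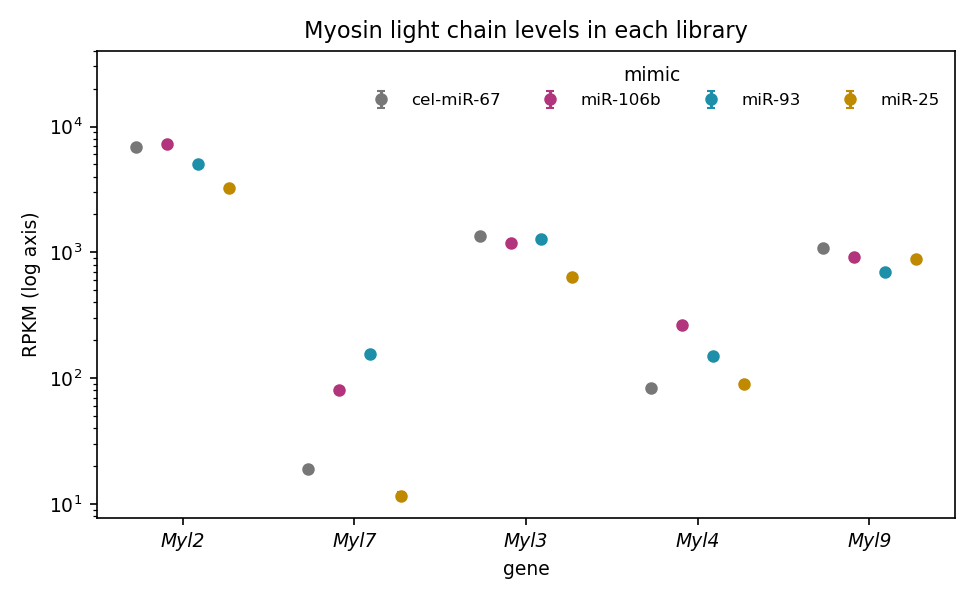
RPKM on a log axis for the 5 light chain genes in the 4 libraries, 1 point per library, with exact Poisson 95% intervals of the reads that are mostly smaller than the points. Myl7 runs from 11.6 after miR-25 to 155 after miR-93, while Myl2 stays between 3250 and 7223.

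Among the regulatory chains, Myl7 had an RPKM of 18.8 after cel-miR-67, 81.2 after miR-106b, 155 after miR-93 and 11.6 after miR-25, from 995, 5623, 9859 and 734 reads. It was highest after miR-93 and lowest after miR-25, and its highest level was 13.4 times its lowest. Against control, Myl7 rose 4.31-fold after miR-106b (log2 fold change 2.11, interval 2.01 to 2.21) and 8.22-fold after miR-93 (3.04, 2.95 to 3.14). Only 4 of 11296 tested genes rose more after miR-106b, and none of 11280 rose more after miR-93. After miR-25 Myl7 fell by 38.6% (-0.70, -0.84 to -0.57). That call does not hold when the change is taken relative to a list of cardiomyocyte genes, where it was -0.13.

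Myl2, the most abundant of the members, had an RPKM of 6838 after cel-miR-67, 7223 after miR-106b, 4994 after miR-93 and 3250 after miR-25. The miR-106b library was close to the control, at a log2 fold change of 0.08 (0.07 to 0.09). After miR-93 Myl2 fell by 27.0% (-0.45, -0.47 to -0.44), a call that is lost at -0.31 when libraries are scaled to the sum of their RPKM values and at -0.20 relative to the cardiomyocyte genes. After miR-25 Myl2 fell by 52.5% (-1.07, -1.09 to -1.06), and it remained past 1.3-fold under both scalings, at -0.84 and -0.50.

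Myl4, the atrial essential chain, had an RPKM of 83.2 after cel-miR-67, 262 after miR-106b, 150 after miR-93 and 90.2 after miR-25, from 1500, 6199, 3253 and 1955 reads. It was highest after miR-106b, and the exact intervals of its level overlapped between the miR-25 library (86.3 to 94.3) and the control (79.1 to 87.5). Myl4 rose 3.15-fold after miR-106b (1.66, 1.57 to 1.74), where 14 tested genes rose more, and 1.80-fold after miR-93 (0.85, 0.76 to 0.94), where 320 did. After miR-25 it was at 0.12 (0.02 to 0.21), or at 0.69 relative to the cardiomyocyte genes.

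Myl3, its ventricular counterpart, had an RPKM of 1351 after cel-miR-67, 1182 after miR-106b, 1270 after miR-93 and 641 after miR-25. The first 3 libraries lay within 1.3-fold of each other and the miR-25 library stood apart below them. The log2 fold change was -0.19 after miR-106b (-0.22 to -0.17) and -0.09 after miR-93 (-0.11 to -0.07), the latter turning to 0.06 when libraries are scaled to the sum of RPKM values. After miR-25 Myl3 fell by 52.6% (-1.08, -1.11 to -1.05). This matches the fall of Myl2 in size, and the Myl2 to Myl3 ratio was 5.07 after miR-25 against 5.06 in the control library.

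Myl9, which is not a sarcomere chain, had an RPKM of 1075 after cel-miR-67, 915 after miR-106b, 699 after miR-93 and 879 after miR-25. It varied least of the 5 genes, by 1.54-fold from the lowest library to the highest. After miR-93 Myl9 fell by 34.9% (-0.62, -0.65 to -0.59), a call that is lost at -0.37 relative to the cardiomyocyte genes. After miR-106b it was at -0.23 (-0.25 to -0.21) and after miR-25 at -0.29 (-0.31 to -0.26), a value that turns to 0.28 relative to the cardiomyocyte genes.

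Counted together, 2 of the 5 genes were up and none down after miR-106b, 2 up and 2 down after miR-93, and none up and 3 down after miR-25, with median log2 fold changes of 0.08, -0.09 and -0.70. Of all tested genes, 11.9% were up and 12.7% down after miR-106b, 15.1% and 15.6% after miR-93, and 19.3% and 22.6% after miR-25. Because the members were picked with these values known, nothing is read from the comparison of these shares. On the log2 scale, the RPKM sum of all genes stood at -0.15 after miR-93 and -0.24 after miR-25 relative to the control, a shift that scaling to this sum takes out of every gene.

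**Figure D2:**
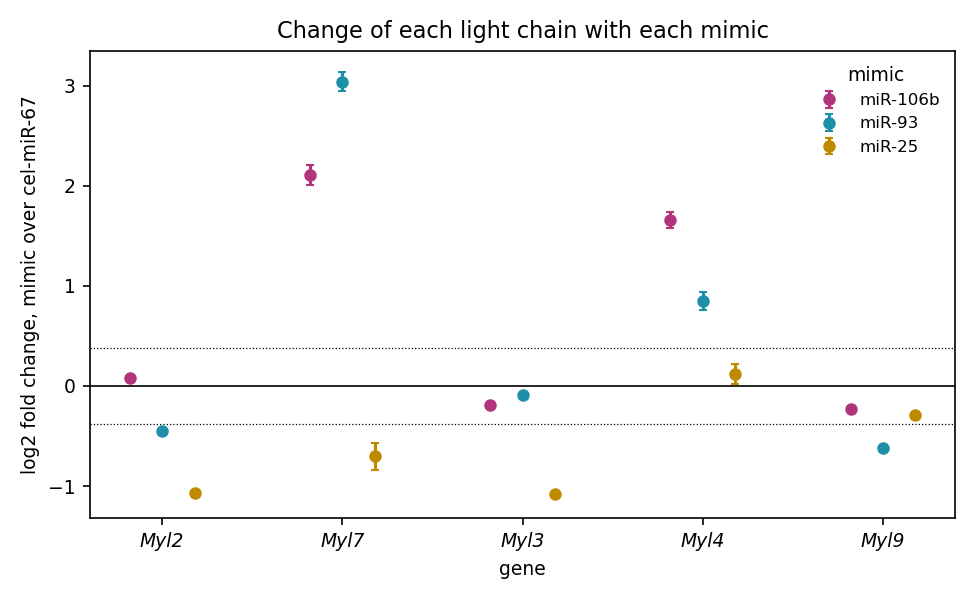
Log2 fold change of RPKM, mimic over cel-miR-67, for the 5 light chain genes, with 95% exact intervals of the reads and dotted lines at 1.3-fold. Myl7 and Myl4 lie above the upper line after miR-106b and miR-93, and Myl2, Myl3 and Myl7 lie below the lower line after miR-25.

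The ratio of the atrial to the ventricular form was taken within each library, where it does not depend on the library size. The Myl7 to Myl2 ratio of RPKM was 0.276% after cel-miR-67 (interval 0.259 to 0.293), 1.12% after miR-106b (1.09 to 1.15), 3.10% after miR-93 (3.04 to 3.17) and 0.356% after miR-25 (0.331 to 0.383). It was higher than in the control in all 3 mimic libraries, by 4.08-fold after miR-106b (3.81 to 4.36), by 11.3-fold after miR-93 (10.5 to 12.0) and by 1.29-fold after miR-25 (1.17 to 1.42). After miR-25 both chains were lower than in the control and Myl2 more so.

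For the essential pair, the Myl4 to Myl3 ratio was 6.16% after cel-miR-67 (5.84 to 6.49), 22.2% after miR-106b (21.6 to 22.8), 11.8% after miR-93 (11.4 to 12.2) and 14.1% after miR-25 (13.4 to 14.8). The increase over control was 3.60-fold after miR-106b (3.40 to 3.82), 1.92-fold after miR-93 (1.80 to 2.04) and 2.29-fold after miR-25 (2.13 to 2.45). The miR-25 increase came with a Myl3 level of 641 against 1351, while Myl4 was at 90.2 against 83.2. The mimics therefore fall in a different order for the regulatory pair, where miR-93 was highest, and for the essential pair, where miR-106b was highest and miR-93 lowest of the 3.

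**Figure D3:**
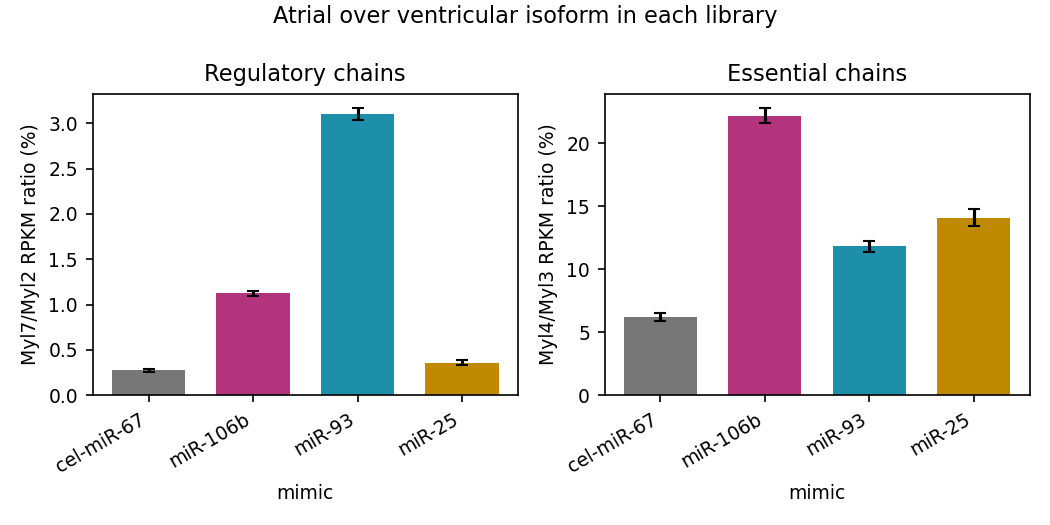
Ratio of atrial to ventricular RPKM in percent for the regulatory chains (Myl7 over Myl2, left) and the essential chains (Myl4 over Myl3, right), 1 bar per library, with 95% exact intervals of the reads and each axis starting at 0. The regulatory ratio peaks at 3.10% after miR-93 and the essential ratio at 22.2% after miR-106b.

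Even at their highest, the atrial forms were the minority of each pair. Myl7 made up 0.275% of the summed RPKM of Myl2 and Myl7 in the control library and 3.01% after miR-93, and Myl4 made up 5.80% of the summed RPKM of Myl3 and Myl4 in the control and 18.2% after miR-106b. The 4 sarcomere chains together summed to 8291 RPKM after cel-miR-67, 8749 after miR-106b, 6569 after miR-93 and 3992 after miR-25. Regulatory over essential RPKM was 4.78, 5.06, 3.63 and 4.46 in the same order. The level of 1 gene against another depends on the gene length that the authors' scaling used, which the RPKM steps put at 2328 bases for Myl7, 795 for Myl4, 902 for Myl3, 1104 for Myl9 and 480 for Myl2. These lengths were not checked against an annotation. After miR-93, for example, Myl7 had 1.03 times the RPKM of Myl4 but 3.03 times its reads. The recovered reads of Myl7 were 1.34% of those of Myl2 in the control library and 15.1% after miR-93, against RPKM ratios of 0.276% and 3.10%. The change of a ratio between libraries does not depend on these lengths.

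The libraries of the mimics with the same seed, miR-93 and miR-106b, were also set against each other, a comparison that does not involve the control. After miR-93 Myl7 was 1.91-fold higher than after miR-106b (log2 0.93, 0.89 to 0.98), and Myl4 was 1.75-fold lower (-0.81, -0.87 to -0.75). Myl2 was 1.45-fold lower (-0.53, -0.55 to -0.52), Myl9 was 1.31-fold lower (-0.39, -0.41 to -0.36) and Myl3 was at 0.10 (0.08 to 0.13). So 1 of the 5 genes was up and 3 down, where 7.3% and 8.21% of 11391 tested genes were. These calls were not rescaled. The cardiomyocyte genes had a median of -0.25 in this comparison, and relative to it the calls of Myl2 and Myl9 would be lost. The Myl7 to Myl4 ratio was 3.34-fold higher after miR-93 than after miR-106b (3.17 to 3.53), with the atrial chains differing from each other in direction.

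The other genes of the light chain system, namely other light chains, genes of light chain phosphorylation and heavy chains, were taken from fixed lists. Over these lists together, 5 of 23 tested genes were up and 6 down after miR-25, where 19.3% and 22.6% of all tested genes were. Relative to the cardiomyocyte genes, 14 were up and 3 down. For miR-93, 2 of 22 were up and 5 down, where 15.1% and 15.6% of all tested genes were. For miR-106b, 0 of 23 were up and 6 down, where 11.9% and 12.7% of all tested genes were. On the cardiomyocyte scaling the miR-93 counts were 4 up and 2 down, and the miR-106b counts 0 up and 4 down. The shares of all genes on that scaling are not given here, so nothing is read from these scaled counts. Of the other light chains, 5 of 8 listed symbols were found, and after miR-106b, miR-93 and miR-25 there were 0, 0 and 1 up and 2, 2 and 0 down of 4, 3 and 4 tested (medians -0.63, -0.51 and -0.09). Myl12a, a widely expressed non-muscle regulatory chain, had an RPKM of 708 after cel-miR-67, 553 after miR-106b, 406 after miR-93 and 713 after miR-25. It fell after miR-93 (-0.80, -0.84 to -0.77), the mimic with which Myl9 also fell, and was at -0.36 after miR-106b and 0.01 after miR-25. Its near-copy Myl12b was between 27.2 and 34.8 RPKM, and reads of 50 bases may not separate such copies fully. Myl6b, an essential chain of non-muscle myosin, was lower after miR-106b, at 3.88 against 7.28 RPKM, from 72 and 103 reads (-0.91, -1.36 to -0.46). It was also lower after miR-93, at 5.10 RPKM (-0.51, -0.94 to -0.09), a call that is lost at -0.37 when libraries are scaled to the sum of RPKM and at -0.26 relative to the cardiomyocyte genes. Relative to those genes, Myl12a after miR-25 was at 0.58.

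Among 13 found genes that set light chain phosphorylation, 12 were tested, of which 0 were up and 1 down after miR-106b, 2 and 1 after miR-93, and 2 and 2 after miR-25. The medians of their log2 fold changes were -0.04, -0.18 and 0.11. Of all tested genes, 11.9% were up and 12.7% down after miR-106b. The same shares were 15.1% and 15.6% after miR-93, and 19.3% and 22.6% after miR-25. The counts of the list lay near or below these shares, so nothing is read from them about the list. Mylk3, the cardiac kinase that phosphorylates Myl2, had an RPKM of 127 after cel-miR-67, 132 after miR-106b, 152 after miR-93 and 57.6 after miR-25. The miR-25 library stood apart, with a fall of Mylk3 (-1.14, -1.20 to -1.09) near in size to those of Myl2 and Myl3. Of the genes of the myosin phosphatase targeting subunits, Ppp1r12a (0.79, 0.74 to 0.83) and Ppp1r12b (0.51, 0.45 to 0.57) rose after miR-25, and Ppp1r12c was at -0.06 (0.51 relative to the cardiomyocyte genes). After miR-93 Ppp1r12b fell (-0.62, -0.69 to -0.55), a call that is lost at -0.37 relative to the cardiomyocyte genes, and Mylk, the smooth muscle and non-muscle kinase, rose (0.49, 0.39 to 0.58). The catalytic subunit gene Ppp1cb lay between -0.38 and -0.12.

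All 7 heavy chain genes that partner these light chains were tested. After miR-25 4 were down and 2 up, where 22.6% and 19.3% of all tested genes were. The shares of all tested genes down and up were 15.6% and 15.1% after miR-93, and 12.7% and 11.9% after miR-106b. The main sarcomere heavy chains fell, Myh6 from 1307 to 663 RPKM (-0.98, -0.99 to -0.97) and Myh7 from 1226 to 778 (-0.66, -0.67 to -0.64), together with Myh7b (-1.35, -1.58 to -1.14) and the non-muscle Myh9 (-0.45, -0.48 to -0.42). Relative to the cardiomyocyte genes, a list that also holds Myh6, the calls of Myh7 (-0.08) and Myh9 (0.12) are lost, and Myh6 is at -0.41. The smooth muscle heavy chain Myh11 rose from 13.8 to 27.6 (0.99, 0.92 to 1.07), and non-muscle Myh14 rose from 2.52 to 4.67 RPKM (0.89, 0.72 to 1.06). After miR-93 none was up and 2 were down, Myh14 (-0.80, -1.03 to -0.58) and Myh11 (-0.41, -0.49 to -0.32), the latter at -0.16 relative to the cardiomyocyte genes. After miR-106b none was up and 3 were down, Myh14, Myh11 and Myh6, the last of which is at -0.37 on that scaling and no longer called. Myh6 and Myh7 after miR-93 were at 0.06 and -0.11, and the median of the list was 0.06, against -0.10 after miR-106b and -0.45 after miR-25.

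Cell type markers were read beside these values, and the calls in the marker lists use the deposited RPKM without rescaling. Over all tested genes, 11.9% were up and 12.7% down after miR-106b. The shares were 15.1% and 15.6% after miR-93, and 19.3% and 22.6% after miR-25. Of 11 atrial markers, 4 had an RPKM below 1 in the control library, among them Bmp10 at 0.765, Nr2f2 at 0.875 and Kcna5 at 0.0488. Of the 7 tested, 1 was up and 2 down after miR-106b, 3 up and 2 down after miR-93, and 2 up and 4 down after miR-25, with medians of -0.21, -0.12 and -0.40. The summed RPKM of the atrial markers was 1931 after cel-miR-67, 1680 after miR-106b, 351 after miR-93 and 4474 after miR-25, mostly from Nppa, which encodes the atrial natriuretic peptide. Without Nppa the sums were 71.1, 72.6, 89.3 and 48.8 in that order. Thus the miR-93 library, with the highest Myl7, had the lowest Nppa at 261 RPKM. The largest part of its sum without Nppa was Dkk3, at 43.3 RPKM against 25.4 in the control, and Gja5 was at 13.7 against 8.12. Stard10 was also higher there, at 3.16 against 1.32 (log2 fold change 1.26, interval 0.81 to 1.72). Sln was below the control, at 13.5 against 19.1 (-0.50, -0.88 to -0.12). Kcnj5, at 11.4 against 12.8 (-0.16), and Kcnj3, at 2.24 against 2.44 (-0.12, -0.52 to 0.28), were within 1.3-fold. After miR-25 Dkk3 and Gja5 were at their lowest, 8.76 and 5.13, while Stard10 was at its highest, 4.51 against 1.32 in the control, so the list had no common order of libraries. A part of atrial cells in the levels of Myl7 and Myl4 was not tested.

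Of 8 ventricular markers, 7 were tested, of which 2 were up and 0 down after miR-106b, 5 up and 0 down after miR-93, and 1 up and 3 down after miR-25 (medians 0.06, 0.54 and 0.06). Irx4, a transcription factor of the ventricle, had an RPKM of 8.47 after cel-miR-67, 13.1 after miR-106b, 17.2 after miR-93 and 2.46 after miR-25. This order of libraries was that of Myl7, and the atrial markers Gja5 and Dkk3 had it too. It was not common to the ventricular list. Lbh was highest after miR-106b, at 75.8 RPKM against 59.4 after miR-93. Irx2 was at 0.55 after miR-25 (interval -0.03 to 1.14) and Gja1 at 0.06. Among 11 cardiomyocyte markers the median was -0.06 for miR-106b, -0.25 for miR-93 and -0.57 for miR-25. After the last of these mimics all 11 were down, and after each of the others 1 was up and 4 were down. In bulk RNA, fewer cardiomyocytes and less RNA of these genes per cardiomyocyte cannot be told apart. Within that list the falls after miR-25 ran from -0.42 for Pln to -4.47 for Tnni3, with Ryr2 at -1.29 and Tnnc1 at -1.14. Myl2 and Myl3, at -1.07 and -1.08, fell more than the list median and less than Tnni3, Ryr2 and Tnnc1.

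Smooth muscle markers were read beside Myl9. After miR-25, 4 of 8 were up and 2 down. Acta2 (1.43, 1.38 to 1.47), Tagln (1.45, 1.42 to 1.47) and Cnn1 (1.65, 1.59 to 1.71) rose, Smtn (-0.46, -0.66 to -0.26) and Synpo2 (-0.48, -0.57 to -0.38) fell, and Myl9 was at -0.29. After miR-93 1 was up and 3 down, among them Cnn1 at -0.96 and Synpo2 at -1.67, and after miR-106b 1 was up and 2 down. The list median was -0.10 for miR-106b, -0.27 for miR-93 and 0.63 for miR-25. The summed RPKM of the 8 smooth muscle markers was 783 after cel-miR-67, 714 after miR-106b, 610 after miR-93 and 2083 after miR-25. Fibroblast markers summed to 852, 664, 767 and 350.03 RPKM in the same order. Of 10 tested, 0 were up and 5 down after miR-106b and again after miR-93, and 1 was up and 7 down after miR-25 (medians -0.37, -0.29 and -0.71). The 6 endothelial markers found, of 7 listed, summed to at most 8.34 RPKM and macrophage markers to at most 9.27. The markers found were thus scarce in all libraries. Pecam1, also on the endothelial list, was not read, so its level is not in that sum. What part these other cell types had in the light chain levels was not tested.

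**Figure D4:**
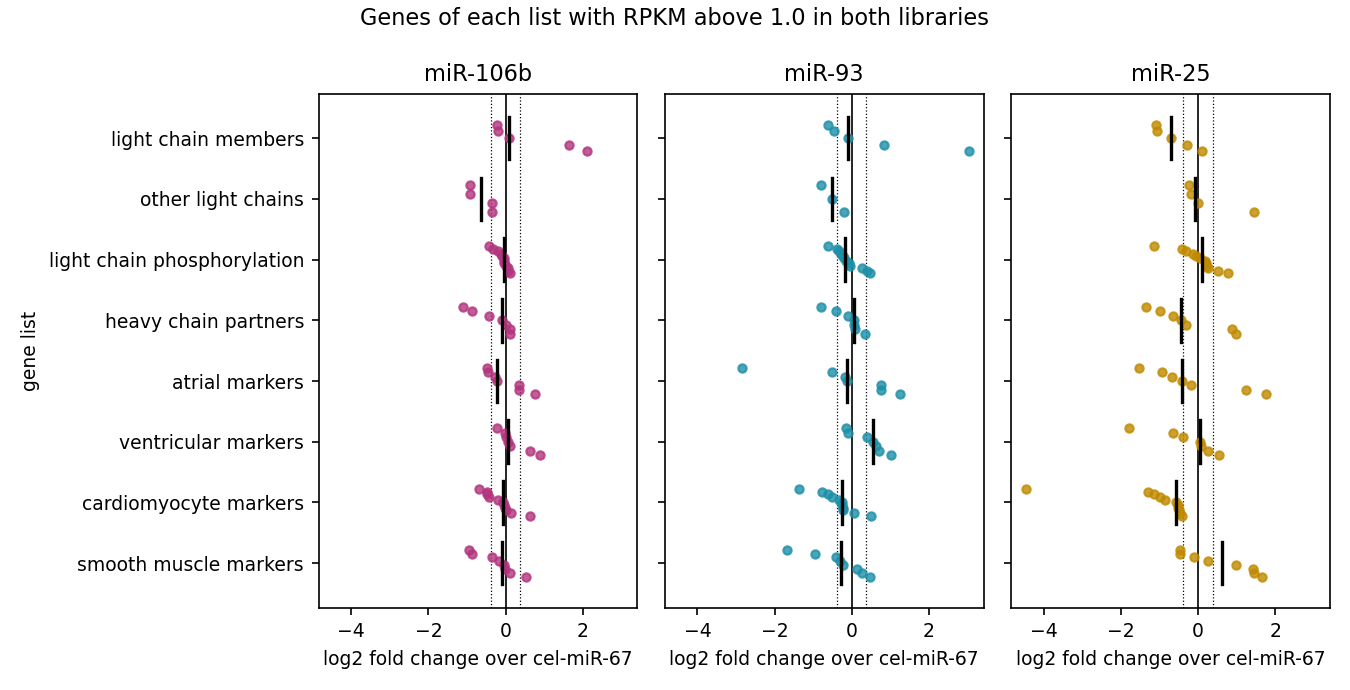
Log2 fold change over cel-miR-67 of each gene with RPKM above 1.0 in both libraries, by list, with 1 panel per mimic. Points are genes, black bars are list medians and dotted lines mark 1.3-fold, and the 2 members far to the right after miR-106b and miR-93 are Myl7 and Myl4.

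The genes with the most similar pattern were found by the Euclidean distance between the 3 log2 fold changes, among 4040 genes with RPKM above 10 in all 4 libraries. For Myl7 the nearest was Ccnb1, the gene of cyclin B1, at a distance of 1.39, with 46.1, 36.9 and 10.2 RPKM after miR-106b, miR-93 and miR-25 against 10.4 in the control, followed by Eno3 at 1.66 and Apoe at 1.68. The rises of Myl7 were among the largest of all tested genes, so large distances follow from its own values and nothing is read from them. At 11.6 RPKM after miR-25, Myl7 was also near the limit of 10, under which other genes were left out. The nearest to Myl4 were LOC100911295 (0.60), Hmgn2 (0.64) and Got1 (0.67). Myl2 had nearer neighbours in Rpl28 (0.14), Ndufa4 (0.15) and Rnf4 (0.15), and Myl3 in Atp5d (0.10), Ldhb (0.10) and Atp5g1 (0.14). Of the genes near Myl3, Atp5d and Atp5g1 encode subunits of the mitochondrial ATP synthase and Ldhb the heart form of lactate dehydrogenase. The nearest genes of all were those of Myl9, namely Pgm1 (0.04), Col4a2 (0.06) and Spink8 (0.08). All 3 values share the control library, so the distances describe these 4 libraries.

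RefSeq promoter windows (build GRCr8, 250 bases before to 50 after the start) were held for Myl3, Myl4, Myl7 and Myl6. They were searched on both strands for the CArG box bound by serum response factor, for the MCAT motif CATTCC bound by TEAD factors, for the E-box CAGCTG and for TATAAA, which are found in 1.64%, 14.2%, 15.1% and 14.2% of 33469 windows. The Myl3 window held 1 CArG box and 2 MCAT motifs and the Myl4 window 1 E-box and 1 TATAAA on the reverse strand, which reads TTTATA in the printed stretch, while no match was found in the windows of Myl7 and Myl6. The ventricular Myl3 and the atrial Myl4 thus shared none of these letters. The stretches around 1 match in each are shown, with the match in capitals, from chr8:119616987-119617016 and chr10:89976047-89976076, both on the plus strand.
Myl3: gagccaatgcCCTTTTATGGccctgtccct
Myl4: gtgtcccttcctTTTATAgtcagcagcagt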

How the data were processed

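RNA of 4 cardiomyocyte cultures was sequenced, 1 library per mimic. As the methods state, the authors checked reads with FASTQC, trimmed adaptors with Cutadapt, aligned single reads of 50 bases to Rnor 6.0 with STAR (2.7 in the processing notes) and converted rounded gene counts with edgeR. The deposited values are RPKM, and the program that counted reads is not given in the sources used here. The series table and the sample tables held identical values.

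Reads were recovered from the RPKM values: library sizes came from the most common ratio between libraries, and each gene's reads are the smallest whole numbers (relative tolerance 1e-09) that also give a whole gene length. A factor common to reads and length would go unseen, so true reads may be higher and intervals narrower. The recovered library sizes are well above the number of reads per sample that the methods state, which was not resolved, and every interval rests on the recovered reads. Recovery and intervals were tried on simulated Poisson reads with means set by the recovered reads. Such reads hold no spread between cultures and do not bear on the mismatch in read numbers. Listed genes held 60.4% to 66.9% of the library sizes (22674410 to 29749467 reads).

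Fold changes are ratios of RPKM without a pseudocount, tested at an RPKM over 1.0 in both libraries (the methods use 2.0, run as an alternative). Intervals of fold changes and of ratios within a library are Clopper-Pearson intervals of read shares, those of levels exact Poisson intervals, and those of changes of a ratio use the normal approximation to the log of 4 read counts. No p-value was computed, since 1 library per mimic allows no test. Named genes were the members, genes of the lists, and the 3 genes nearest to each member. Values of some genes of the phosphorylation list are not reported here. The members and lists were chosen with earlier results of these data known. Computations used Python 3.11.15, numpy 2.4.6, pandas 2.3.3, scipy 1.17.1 and matplotlib 3.10.9.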

Additional observations from a re-analysis of the deposited data

How the results depend on the processing

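The 6 changes of the atrial to ventricular ratios moved by less than their counting intervals with a pseudocount of 0.1 or 1 RPKM. With the share of the atrial form in place of the ratio, the Myl4 change was 1.65 after miR-106b and 1.09 after miR-25 on the log2 scale, below 1.85 and 1.19 for the ratio. Of the 29 listed genes of the light chain system, 25 were found, and 0 were up and 6 down after miR-106b, 2 and 5 after miR-93, and 5 and 6 after miR-25. Counting genes at any level above 0 gave 1 up after miR-106b, and a fold cutoff of 1.5 gave 0 up and 3 down after miR-93. Chosen after seeing the data, scaling to the sum of RPKM gave 4 up and 3 down after miR-93 and 9 up after miR-25, and scaling to the cardiomyocyte genes gave 4 up and 2 down after miR-93 and 14 up and 3 down after miR-25. On the latter scaling Ppp1r14b turned from -0.41 to 0.16 and Myh9 from -0.45 to 0.12 after miR-25. The shares of all genes on these scalings are not given here. An RPKM cutoff of 2.0 and centring on the median gene kept these counts within 1.5-fold. For the members' own fold changes, pseudocounts and centring stayed within the counting intervals in all 15 combinations of gene and mimic, and scaling to the sum of RPKM or to the cardiomyocyte genes moved 13 of 15 each. No paired analysis was possible because each mimic has 1 library. Depth did not limit the 5 members, which had at least 734 reads in every library, and the spread between cultures was not measured.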

Other observations

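The light chains of fast skeletal muscle were scarce. Myl1, the essential chain of fast fibres, had an RPKM of 2.04 after cel-miR-67, 1.08 after miR-106b, 0.208 after miR-93 and 5.59 after miR-25, from 49, 34, 6 and 161 reads. After miR-25 it rose (log2 fold change 1.45, interval 0.98 to 1.94) and after miR-106b it fell (-0.92, -1.59 to -0.26), while the miR-93 level was under the limit of 1.0. The order of the 4 libraries, from miR-25 down to miR-93, was the reverse of that of Myl7. Mylpf, the regulatory chain of fast fibres, was at 0.422 RPKM after cel-miR-67, 1.70 after miR-106b, 0.551 after miR-93 and 0.402 after miR-25, from 7, 37, 11 and 8 reads, and was below the limit in the control library.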
